A study of Canis lupus familiaris with 6 samples.

Results

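The tumour necrosis factor (TNF) superfamily and the superfamily of its receptors were followed in MDCK, a canine kidney epithelial cell line. Members were all genes whose single platform symbol begins with TNFSF or TNFRSF and a number, together with TNF, LTA, LTB, FAS, FASLG, CD40, CD40LG, CD27, CD70, NGFR and EDAR. The rule found 36 of the 15947 genes with a probe set of their own, 15 ligands and 21 receptors, each with 1 probe set. It used no measured value, although the families were picked for description with earlier results of these data known. EDA2R had no probe set of its own, nor did TNFRSF6B, and TNFSF12 and TNFSF13 share 1 probe set between them. These genes were not analysed here.

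The ligands are mostly trimers anchored in the cell surface, some of which are shed by proteases, and each binds one or several receptors on a neighbouring cell. Some receptors with a death domain can recruit FADD and caspases and start apoptosis, and most of those without one bind TRAF adaptors. Activation of NF-kB and MAP kinases is not confined to either kind. Soluble decoy receptors capture ligands without signalling. Many members are known for costimulation between antigen-presenting cells and lymphocytes, and kidney epithelium responds to TNF itself through its death domain receptor. The roles given here come from human and mouse work.

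Total RNA of 6 samples was hybridised to single-colour Affymetrix arrays. Untreated cells gave 2 arrays, and cells exposed for 30 days to 5 ng/ml of the cytokine TGFb (transforming growth factor beta), passaged throughout, gave another 2. 5-AZA, the usual short name of a DNA methylation inhibitor, was represented by 1 array. Its label of 72 h after TGFb can be read as the length of exposure, and whether TGFb was still present is not stated. Withdrawal was represented by 1 array, of cells grown for 30 days without TGFb after the treatment. All arrays share the line, medium and serum. Whether the paired arrays of a group were grown separately is not stated, so the p-values measure a spread that may be technical. Values are deposited log2 signals per probe set, and levels are not compared between genes because probe sets differ in brightness. In bulk RNA a larger share of expressing cells and more RNA per cell cannot be told apart.

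Array medians lay between 4.97 and 5.01, and arrays of a group correlated at 0.984 (untreated) and 0.987 (TGFb) over all probe sets. The epithelial marker CDH1, encoding E-cadherin, read 11.64 and 11.43 in untreated cells, 6.25 and 7.24 under TGFb, 6.98 with 5-AZA and 11.34 after withdrawal, and 4 of 9 measured epithelial markers fell under TGFb. No background level is given. Of the 36 members, 12 had a mean signal above the median of all probe sets (4.99), and the other 24 lay below it. A member at a low and even signal may not be expressed at all, and these values cannot show which.

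Across the family, 30 of 36 members stayed within a 2-fold range over all 6 arrays. The 6 that did not were the ligands TNFSF4, TNFSF18, TNFSF11, TNFSF10 and TNFSF15 and the death receptor FAS. Over all probe sets, 25.2% spanned 2-fold or more. A difference was called when its Benjamini-Hochberg adjusted p from limma, taken over all 32293 probe sets, was under 0.05. By that rule TNFSF4 rose with TGFb and fell on withdrawal, and no other member was called in any of the 5 comparisons.

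**Figure D1:**
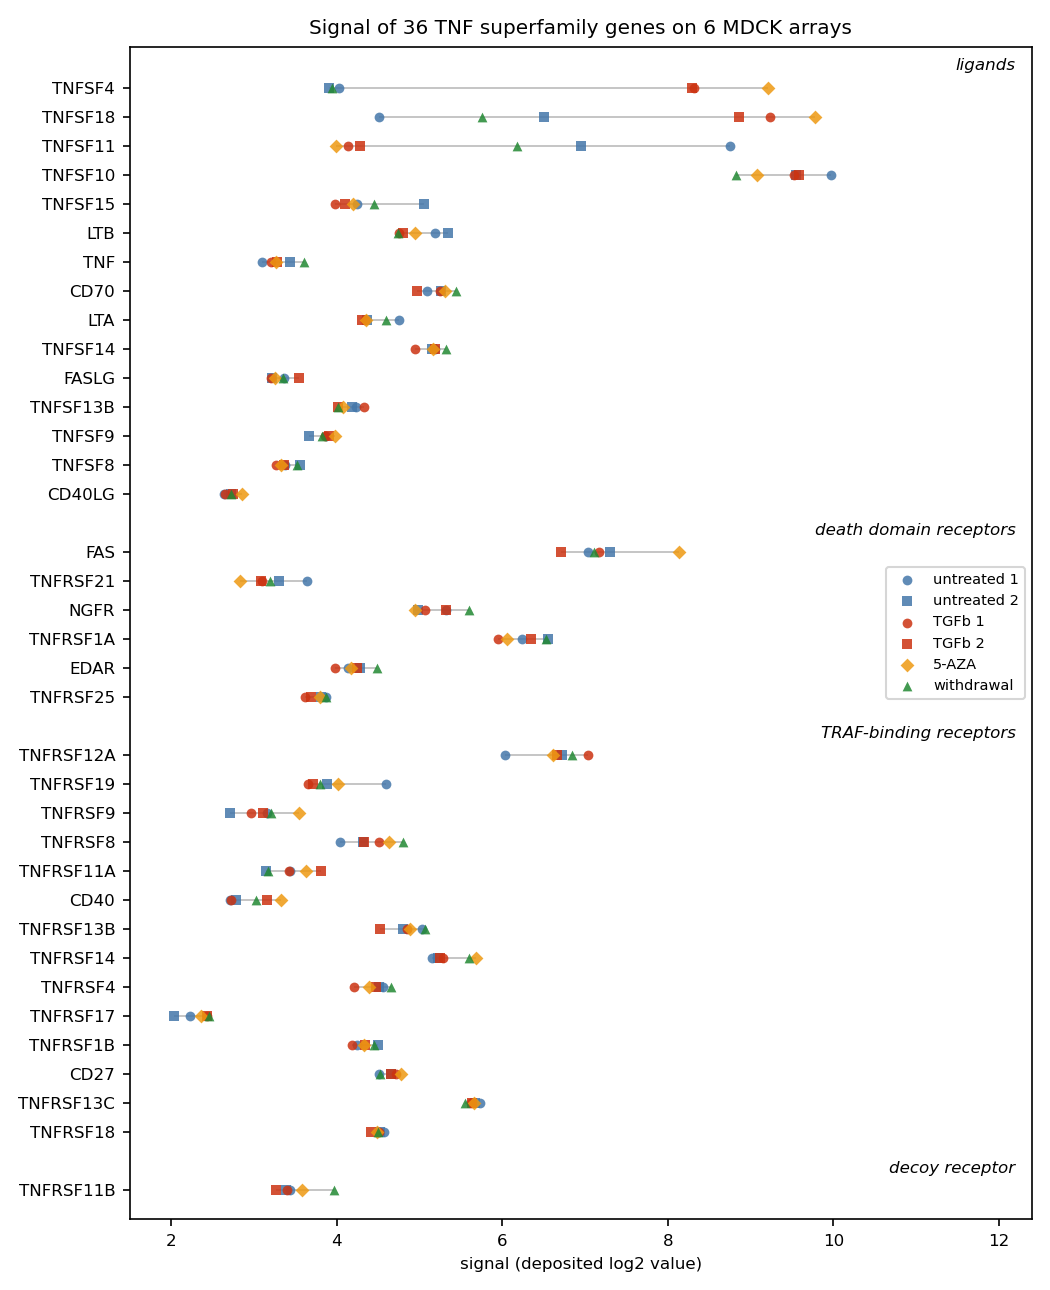
Deposited log2 signal (horizontal axis) of the 36 TNF superfamily genes, grouped as ligands, death domain receptors, TRAF-binding receptors and the decoy receptor, with 1 point per array and a grey line over the range of the 6 arrays. TNFSF4, TNFSF18 and TNFSF11 span more than 4.7 log2 units, while no receptor spans more than 1.43.

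TNFSF4, known as OX40 ligand, is a costimulatory protein that antigen-presenting cells and activated endothelium show to T cells carrying its receptor TNFRSF4. Its signal was 4.03 and 3.91 in untreated cells, 8.32 and 8.29 under TGFb, 9.21 with 5-AZA and 3.94 after withdrawal. The untreated and withdrawal arrays thus lay together at the low end, and the TGFb and 5-AZA arrays lay far above them with no overlap. TGFb raised TNFSF4 by 4.33 ± 0.15 on the log2 scale (standard error of the fit, adjusted p = 0.00345), a 20.2-fold difference between group means of 3.97 ± 0.08 and 8.31 ± 0.02 (SD, n = 2 each). It was the 1 member called under TGFb and was higher, beside 1.64% of all probe sets called in either direction and 0.691% called higher. The call was lost without TGFb replicate 1 (difference 4.32, adjusted p = 0.0563), a setting in which limma called 0 probe sets of 32293.

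On withdrawal TNFSF4 fell by 4.36 ± 0.18 against the TGFb arrays (adjusted p = 0.00819), which both comparisons share. No other member was called there, beside 0.839% of all probe sets called in either direction and 0.471% called lower. Leaving out either TGFb array removed every call in that comparison, with TNFSF4 at −4.35 (adjusted p = 0.0954) without replicate 1 and −4.38 (adjusted p = 0.0763) without replicate 2. Set directly against untreated cells, the withdrawal array differed by −0.03 ± 0.18, with a 95% interval of −0.48 to 0.43. With 5-AZA, TNFSF4 stood 0.91 ± 0.18 above the TGFb mean (interval 0.45 to 1.36, adjusted p = 0.118) and was not called. Against untreated cells the 5-AZA array was 5.24 ± 0.18 higher (adjusted p = 0.00226), and it was the 1 member called, beside 3.65% of all probe sets called in either direction and 2.24% called higher.

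TNFSF18, the ligand of the glucocorticoid-induced receptor TNFRSF18, is described on endothelium and antigen-presenting cells. Its untreated arrays read 4.51 and 6.51, its TGFb arrays 9.23 and 8.87, the 5-AZA array 9.78 and the withdrawal array 5.75. The untreated and TGFb arrays did not overlap, and withdrawal lay between the untreated arrays, which were themselves almost 4-fold apart. The TGFb difference of 3.54 ± 0.65 did not pass (adjusted p = 0.0873, interval 1.88 to 5.20), nor did the difference of withdrawal from TGFb of −3.30 ± 0.80 (adjusted p = 0.183). The 5-AZA array was 4.27 ± 0.80 above untreated (adjusted p = 0.0625) and 0.73 ± 0.80 above TGFb (adjusted p = 0.77). The TGFb difference was 4.53 without untreated replicate 2 and 2.54 without replicate 1. The difference of 5-AZA from untreated was 5.26 and 3.27 in the same order. Both fits take the spread from the TGFb arrays alone, so the disagreement of the untreated arrays leaves the error. The standard error of the TGFb difference fell there from 0.65 to 0.24, so these fits cannot decide whether a difference passes.

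The size and sign of the TNFSF18 difference between withdrawn and untreated cells moved with the untreated array taken. With both arrays it was 0.24 ± 0.80 (interval −1.79 to 2.27, adjusted p = 0.949) and did not pass. It was −0.75 without replicate 1 and 1.24 without replicate 2.

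TNFSF4 and TNFSF18 lie side by side on dog chromosome 7 in the RefSeq gene order of assembly UU_Cfam_GSD_1.0, with PRDX6 on one side and, past 1 unmeasured gene, FASLG on the other. FASLG, encoding the ligand of FAS that cytotoxic lymphocytes use to kill, read 3.36 and 3.22 untreated, 3.21 and 3.54 under TGFb, 3.26 with 5-AZA and 3.35 after withdrawal. It spanned 0.33 log2 units, with overlapping groups. PRDX6, a peroxiredoxin that removes peroxides, was called higher under TGFb (1.73 ± 0.16, adjusted p = 0.0193) and with 5-AZA against untreated (1.48 ± 0.19, adjusted p = 0.0286). PRDX6 lost its call in both comparisons when any 1 of the 4 replicated arrays was left out.

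Of the genes further out, ANKRD45, a gene named for its ankyrin repeats, read 3.20 and 3.07 untreated, 3.98 and 3.99 under TGFb, 5.54 with 5-AZA and 3.34 after withdrawal. Its TGFb difference of 0.85 ± 0.15 did not pass (adjusted p = 0.0762). ANKRD45 rose with 5-AZA against TGFb by 1.56 ± 0.18 (adjusted p = 0.0387), where TNFSF4 and TNFSF18 were not called. That call was lost with any 1 of the 4 arrays left out (adjusted p = 0.0944 to 0.225), whereas the rise of 2.40 ± 0.18 with 5-AZA against untreated (adjusted p = 0.00647) passed in each of these 4 settings. KLHL20, SLC9C2, SUCO, C7H1orf105 and PIGC differed by −0.73 to 0.23 under TGFb, and none was called. The window of 5 genes to either side was chosen after the values of both ligands had been seen.

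**Figure D2:**
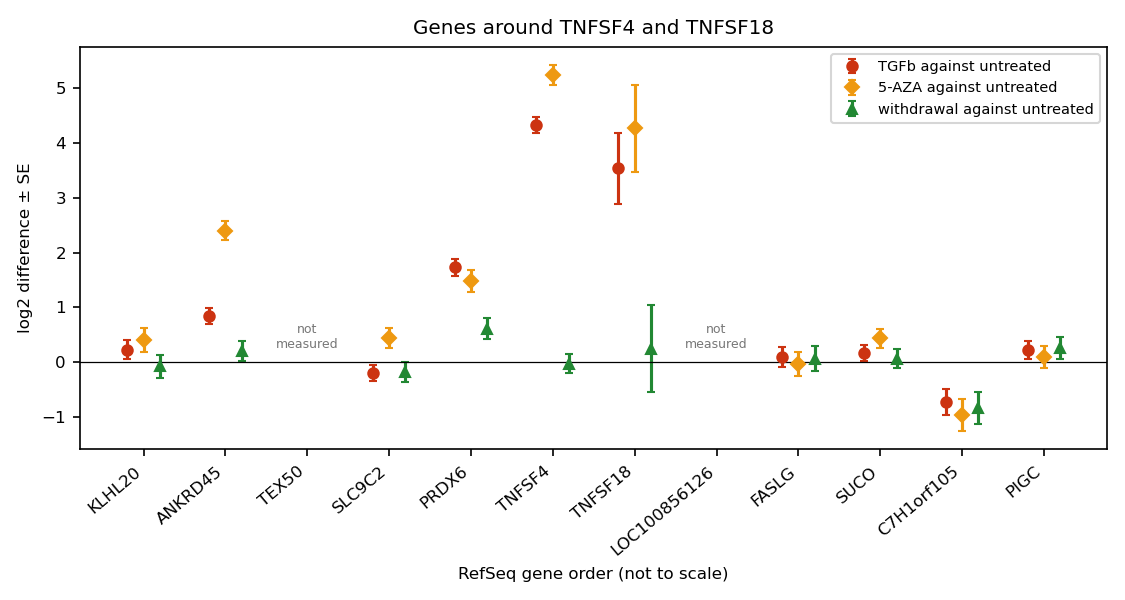
Fitted log2 difference from untreated cells (vertical axis, points with standard errors) for TGFb, 5-AZA and withdrawal, over the genes around TNFSF4 and TNFSF18 in RefSeq order, not to scale. Under TGFb, ANKRD45, PRDX6, TNFSF4 and TNFSF18 lie highest, with ANKRD45 at 0.85 and TNFSF4 at 4.33. KLHL20 and PIGC lie at 0.23 and 0.22 under TGFb, and FASLG and SUCO within 0.2 of 0.

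TNFSF11, encoding RANK ligand, the factor that drives osteoclast formation, had its highest signals in the untreated arrays. Its signal was 8.75 and 6.95 in untreated cells, 4.13 and 4.28 under TGFb, 3.99 with 5-AZA and 6.18 after withdrawal. The TGFb and 5-AZA arrays lay below the others, and the withdrawal array lay between them and the lower untreated array. The TGFb difference was −3.64 ± 0.58 (adjusted p = 0.0638), a 12.5-fold lower mean that did not pass, from 7.85 ± 1.27 to 4.21 ± 0.10 (SD, n = 2 each). The difference was −4.54 without untreated replicate 2 and −2.74 without replicate 1. With 5-AZA it was −3.86 ± 0.71 against untreated (adjusted p = 0.0613) and −0.22 ± 0.71 against TGFb (adjusted p = 0.936). The difference between 5-AZA and untreated was −2.96 without untreated replicate 1 and −4.76 without replicate 2. These fits too take the spread from the TGFb arrays alone, and the standard error of the TGFb difference fell from 0.58 to 0.19. They cannot decide whether a difference passes. Withdrawal stood 1.97 ± 0.71 above TGFb (adjusted p = 0.333).

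The difference of withdrawal from untreated in TNFSF11 was −1.67 ± 0.71 (interval −3.50 to 0.15, adjusted p = 0.538). It was −0.77 without untreated replicate 1 and −2.57 without replicate 2, so its size rests on which untreated array is taken. The partners of TNFSF11 were among the members with a mean signal below the median of all probe sets, where expression itself is uncertain. Its signalling receptor TNFRSF11A, known as RANK, read 3.43 and 3.15 untreated, 3.42 and 3.82 under TGFb, 3.63 with 5-AZA and 3.17 after withdrawal. The untreated and TGFb arrays overlapped, and the TGFb difference of 0.33 ± 0.21 did not pass (adjusted p = 0.557).

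TNFRSF11B, known as osteoprotegerin, is the secreted decoy that blocks TNFSF11. It read 3.44 and 3.39 untreated, 3.40 and 3.26 under TGFb, 3.58 with 5-AZA and 3.96 after withdrawal, where it was highest. That array stood 0.55 ± 0.18 above untreated (adjusted p = 0.459) and 0.63 ± 0.18 above TGFb (adjusted p = 0.245), and neither difference passed.

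**Figure D3:**
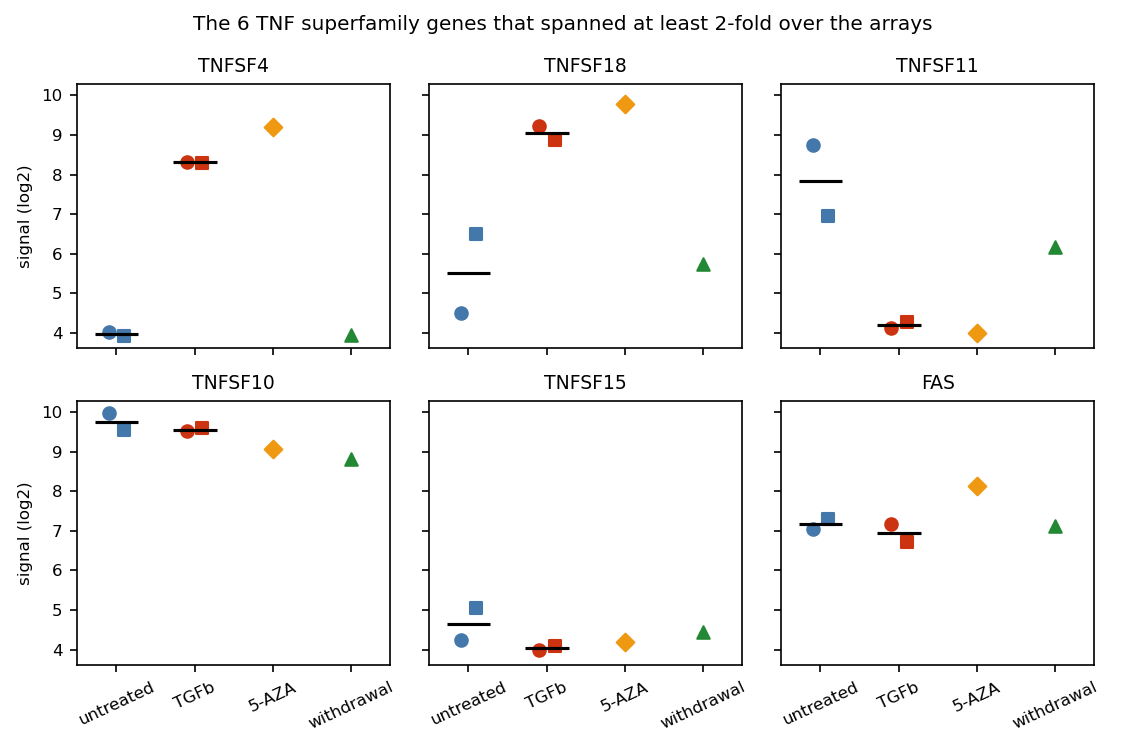
Log2 signal (vertical axis) of the 6 genes that spanned at least 2-fold over the arrays, with 1 point per array, circles and squares for replicates 1 and 2, and a bar at the mean of the untreated and TGFb groups. TNFSF4 and TNFSF18 are high and TNFSF11 low in the TGFb and 5-AZA arrays, whereas FAS is highest with 5-AZA at 8.14.

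TNFSF10, known as TRAIL, induces apoptosis through death receptors. Its signal was 9.97 and 9.55 in untreated cells, 9.53 and 9.59 under TGFb, 9.08 with 5-AZA and 8.82 after withdrawal. Untreated and TGFb arrays overlapped, and both single arrays lay below all 4 of them. The withdrawal difference was −0.94 ± 0.24 from untreated (interval −1.55 to −0.33, adjusted p = 0.376) and −0.74 ± 0.24 from TGFb (adjusted p = 0.284). With 5-AZA the difference was −0.68 ± 0.24 from untreated (adjusted p = 0.229) and −0.48 ± 0.24 from TGFb (adjusted p = 0.475). None of these passed.

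TNFSF15, which costimulates T cells through TNFRSF25, read 4.25 and 5.05 untreated, 3.98 and 4.10 under TGFb, 4.20 with 5-AZA and 4.45 after withdrawal. A single untreated array made most of its span, and the TGFb difference was −0.61 ± 0.29 (adjusted p = 0.425). LTB, a subunit of the lymphotoxin trimer that shapes lymphoid tissue, read 5.18 and 5.35 untreated, 4.75 and 4.80 under TGFb, 4.95 with 5-AZA and 4.75 after withdrawal. Both untreated arrays of LTB lay above the other 4, by differences of −0.49 ± 0.15 for TGFb (adjusted p = 0.236) and −0.52 ± 0.18 for withdrawal (adjusted p = 0.476) that did not pass.

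TNF, the inflammatory cytokine that gives the family its name, had signals of 3.10 and 3.44 untreated, 3.21 and 3.28 under TGFb, 3.27 with 5-AZA and 3.61 after withdrawal. The TGFb arrays lay inside the untreated range, and the difference of −0.02 ± 0.18 had an interval of −0.48 to 0.43. LTA, encoding the other lymphotoxin subunit, lies beside TNF in the RefSeq order, with LTB on the far side of TNF, and spanned 0.45. The remaining 7 ligands spanned 0.21 (CD40LG) to 0.48 (CD70). They were TNFSF8, TNFSF9, TNFSF13B, TNFSF14, CD40LG, CD70 and FASLG, best known from lymphocytes and the cells that activate them. TNFSF8 borders TNFSF15 in gene order, and CD70 lies between TNFSF14 and TNFSF9, with no member of these clusters called.

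Among the 21 receptors, TGFb differences ran from −0.55 to 0.47, and none was called (smallest adjusted p = 0.419). FAS, the death receptor that triggers apoptosis on binding FASLG, gave the widest span. It read 7.04 and 7.30 in untreated cells, 7.17 and 6.71 under TGFb, 8.14 with 5-AZA and 7.11 after withdrawal. The 5-AZA array stood above the other 5, which overlapped. Its difference was 1.20 ± 0.27 from TGFb (interval 0.52 to 1.88, adjusted p = 0.147) and 0.97 ± 0.27 from untreated (adjusted p = 0.145), and neither passed. FAS was the 1 member at least 2-fold higher with 5-AZA than under TGFb, as were 3.16% of all probe sets.

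TNFRSF1A, the main receptor of TNF on most cells, read 6.24 and 6.55 untreated, 5.95 and 6.35 under TGFb, 6.06 with 5-AZA and 6.52 after withdrawal. The untreated and TGFb arrays overlapped, and the TGFb difference of −0.24 ± 0.21 had an interval of −0.79 to 0.30. TNFRSF21, also called death receptor 6, read 3.64 and 3.30 untreated, 3.10 and 3.09 under TGFb, 2.84 with 5-AZA and 3.20 after withdrawal. Its 5-AZA array was lowest, −0.63 ± 0.22 from untreated (adjusted p = 0.221). NGFR, the low-affinity neurotrophin receptor, had 5.32 and 4.98 untreated, 5.06 and 5.32 under TGFb, 4.95 with 5-AZA and 5.59 after withdrawal. Withdrawal differed by 0.44 ± 0.24 from untreated (adjusted p = 0.621). EDAR, needed for hair, tooth and sweat gland formation, spanned 0.51, and TNFRSF25, the receptor of TNFSF15, spanned 0.25.

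TNFRSF12A, the small receptor of TNFSF12, is induced by growth factors and injury. It read 6.04 and 6.72 untreated, 7.03 and 6.66 under TGFb, 6.61 with 5-AZA and 6.85 after withdrawal, with overlap between untreated and TGFb arrays. The TGFb difference was 0.47 ± 0.28 (interval −0.26 to 1.19, adjusted p = 0.534). TNFRSF19, an orphan receptor of the developing skin and nervous system, read 4.60 and 3.88 untreated, 3.65 and 3.72 under TGFb, 4.01 with 5-AZA and 3.80 after withdrawal. Its TGFb difference of −0.55 ± 0.27 (adjusted p = 0.431) came mostly from untreated replicate 1, the highest of the 6 arrays.

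The receptors of TNFSF4 and TNFSF18 are found mainly on T cells. TNFRSF4 read 4.56 and 4.51 untreated, 4.21 and 4.47 under TGFb, 4.39 with 5-AZA and 4.65 after withdrawal. TNFRSF18 read 4.57 and 4.53 untreated, 4.51 and 4.41 under TGFb, 4.49 with 5-AZA and 4.50 after withdrawal. The arrays of each lay within a narrow range, and the withdrawal array of TNFRSF4 was its highest. The TGFb differences were −0.20 ± 0.16 (interval −0.62 to 0.22) for TNFRSF4 and −0.09 ± 0.14 (interval −0.46 to 0.28) for TNFRSF18.

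CD40, the receptor through which T cells activate antigen-presenting cells, read 2.71 and 2.78 untreated, 2.73 and 3.16 under TGFb, 3.32 with 5-AZA and 3.03 after withdrawal. The 5-AZA array was its highest, 0.58 ± 0.24 from untreated (adjusted p = 0.309). TNFRSF9, a costimulatory receptor of T cells, read 3.16 and 2.71 untreated, 2.97 and 3.11 under TGFb, 3.54 with 5-AZA and 3.21 after withdrawal. The 5-AZA array was again highest, 0.61 ± 0.25 from untreated (adjusted p = 0.301). TNFRSF14, which binds TNFSF14 and LTA, read 5.16 and 5.23 untreated, 5.28 and 5.25 under TGFb, 5.68 with 5-AZA and 5.60 after withdrawal. Both single arrays stood above the other 4 for TNFRSF14, by differences from untreated of 0.49 ± 0.17 (adjusted p = 0.238) and 0.40 ± 0.17 (adjusted p = 0.546) that did not pass.

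TNFRSF8, the receptor of TNFSF8 on activated lymphocytes, read 4.04 and 4.31 untreated, 4.51 and 4.33 under TGFb, 4.63 with 5-AZA and 4.81 after withdrawal. Its highest array was the withdrawal array, 0.63 ± 0.21 above untreated (adjusted p = 0.468). TNFRSF13B and TNFRSF17 bind the B cell survival factors of the family. TNFRSF13B read 5.03 and 4.80 untreated, 4.85 and 4.52 under TGFb, 4.89 with 5-AZA and 5.07 after withdrawal. Its untreated and TGFb arrays overlapped, and the withdrawal array was highest. TNFRSF17 read 2.23 and 2.04 untreated and the same 2.43 on both TGFb arrays, with 2.37 with 5-AZA and 2.46 after withdrawal (TGFb difference 0.30 ± 0.15, adjusted p = 0.458). CD27, the receptor of CD70, read 4.51 and 4.66 untreated, 4.72 and 4.65 under TGFb, 4.78 with 5-AZA and 4.52 after withdrawal. Its untreated and TGFb arrays overlapped, and the 5-AZA array was highest. The last receptors, TNFRSF1B and TNFRSF13C, spanned 0.31 and 0.19.

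The intervals show the precision of the fits under a spread that may be technical, and do not bound differences between separate cultures. For a member that may not be expressed, a narrow interval says nothing of a change. For TGFb against untreated, the 95% interval lay wholly inside a 2-fold difference for 30 of 36 members, among them 19 of 21 receptors, and for 78.6% of all probe sets. The 6 whose interval reached 2-fold were TNFSF4, TNFSF18, TNFSF11, TNFSF15, TNFRSF12A and TNFRSF19. With 5-AZA against TGFb, where 1 arm held a single array, 27 intervals (75%) lay inside, beside 67% of all probe sets. The median TGFb difference was −0.08 over the members and −0.01 over all probe sets.

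**Figure D4:**
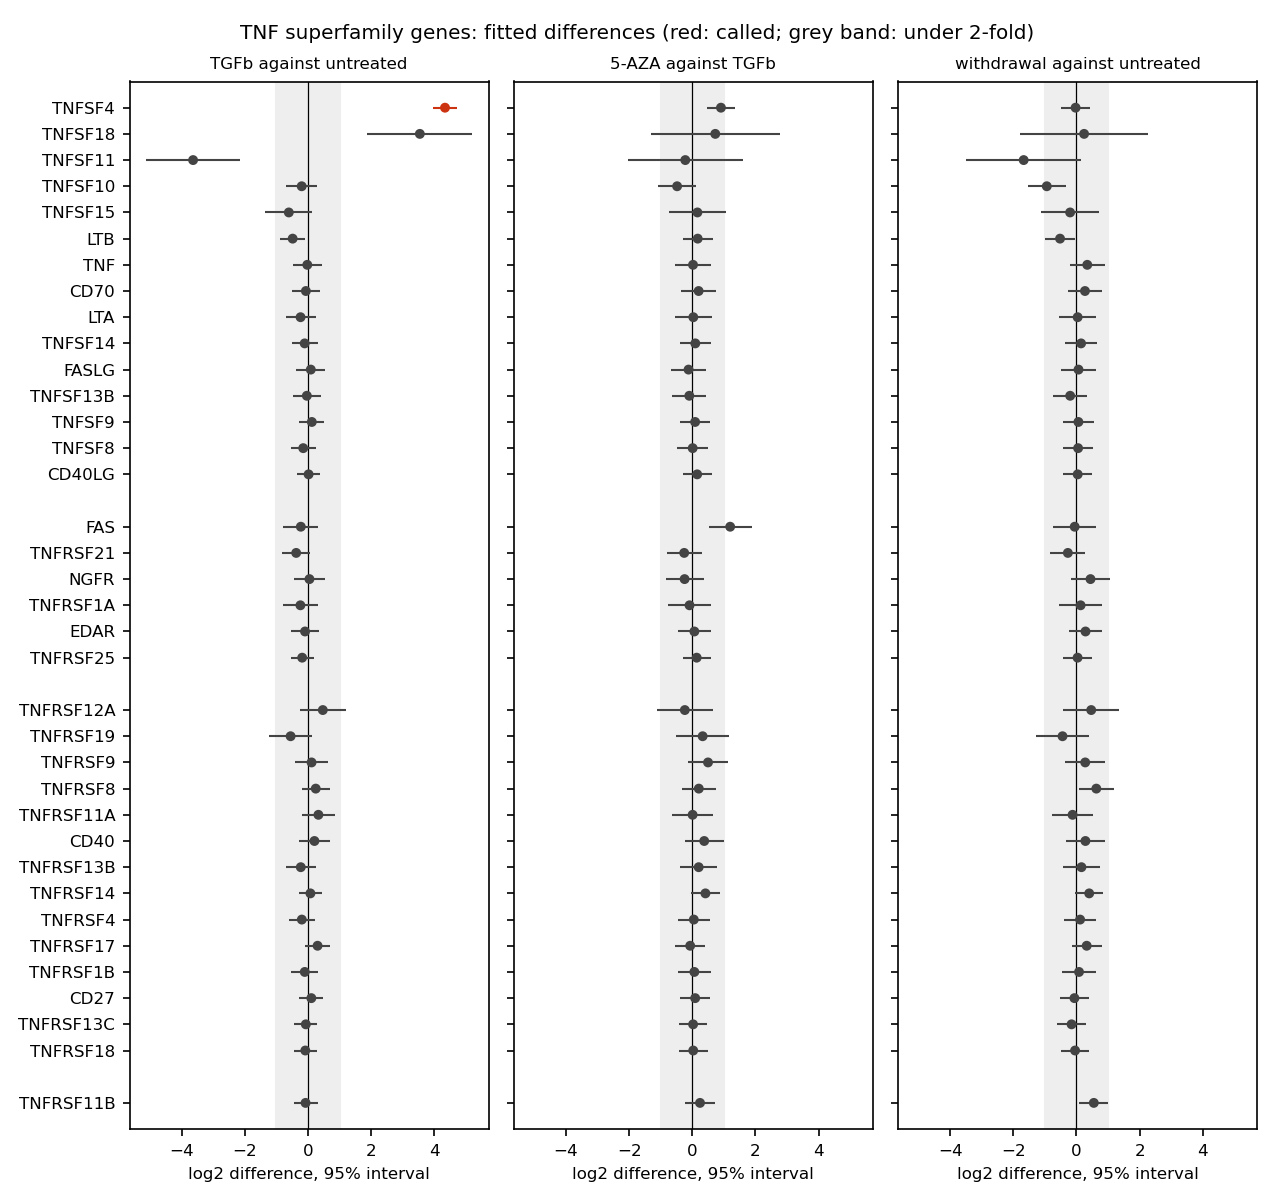
Fitted log2 differences (horizontal axis, points) with 95% intervals (lines) for the 36 members in 3 of the comparisons, where the grey band marks less than 2-fold and red marks a called difference. TNFSF4 is the 1 red point, at 4.33 for TGFb against untreated, and no point is red for 5-AZA against TGFb or withdrawal against untreated.

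For withdrawal against untreated limma called no member and 0% of all probe sets. At an unadjusted p under 0.05, 4 members were counted, TNFRSF8 and TNFRSF11B higher and TNFSF10 and LTB lower, which is 11.1% of members beside 9.77% of all probe sets. For 5-AZA against TGFb limma also called no member, beside 1.04% of all probe sets, and 2 members (FAS and TNFSF4, both higher) had an unadjusted p under 0.05 beside 13.7% of all probe sets. No second tool was run.

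LTBR, EDA, RELT, RELL1, RELL2 and EDARADD, which belong to or bind family members but fall outside the symbol rule, were not called in any comparison, with TGFb differences of −0.16 to 0.36. The signalling genes downstream of the receptors were counted by list. Under TGFb no gene was called among 18 adaptors and ubiquitin enzymes, 12 genes of the death machinery, 15 NF-kB kinases and subunits or 6 ligand sheddases, where 1.64% of all probe sets were called. Median differences were −0.04, −0.01, −0.11 and −0.21. In the list of NF-kB feedback and target genes, 11 were higher and 11 lower under TGFb. NFKBIA and TNFAIP3, feedback inhibitors that NF-kB induces, differed by −0.10 and −0.35. TNIP1, IL1A, IL1B and IER3 differed by 0.83, 0.92, 0.77 and 0.63. These named genes, with CXCL8 and PTGS2, were not called and were chosen after their values were seen. Among 22 NF-kB feedback and target genes, CSF2, encoding a growth factor of granulocytes and macrophages, fell (−2.35 ± 0.31, adjusted p = 0.0435) and no other was called (median −0.05). The neutrophil chemokine gene CXCL8 read 5.18 and 6.85 untreated, 8.23 and 7.58 under TGFb, 9.66 with 5-AZA and 5.32 after withdrawal, an uncalled TGFb difference of 1.89 (adjusted p = 0.234). PTGS2, a prostaglandin synthase, differed by −1.75 (adjusted p = 0.0736).

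CASP10, an initiator caspase that joins death receptor complexes, read 9.11 and 9.04 untreated, 7.74 and 8.11 under TGFb, 7.06 with 5-AZA and 8.68 after withdrawal. It fell with 5-AZA against untreated (−2.01 ± 0.23, adjusted p = 0.0195), and its TGFb difference was −1.15 ± 0.18 (adjusted p = 0.0638). RIPK2, a kinase that activates NF-kB, also fell with 5-AZA against untreated (−1.37 ± 0.18, adjusted p = 0.0301), as did CSF2 (−2.80 ± 0.38, adjusted p = 0.0307). These 3 were the genes called in those lists in that comparison, in which 1.41% of all probe sets were called lower. With 5-AZA against TGFb and in both withdrawal comparisons none of the 5 lists held a called gene. Leaving out any 1 of the 4 replicated arrays ended the calls of CSF2 and RIPK2, and leaving out an untreated array ended that of CASP10 (adjusted p up to 0.0783).

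Antigen-presenting cells and endothelium are known sources of TNFSF4 and TNFSF18, and markers of leukocytes and of endothelium were read. The leukocyte list also holds T cell genes such as CD3E and CD8A, so it does not measure antigen-presenting cells alone. No marker of 14 leukocyte or 7 endothelial genes was called under TGFb, where 1.64% of all probe sets were called, so a count of 0 in lists this short says little. No probe set read 0 on any array (the lowest value was 0.937), so a reading above 0 does not show expression. The mean log2 signal of the leukocyte list was 4.05 to 4.08 untreated, 4.03 to 4.04 under TGFb, 4.21 with 5-AZA and 4.09 after withdrawal. PTPRC was among the leukocyte genes not called. That of the endothelial list was 3.90 to 4.04, 3.87 to 3.93, 4.51 and 4.11 in the same order. With 5-AZA, PECAM1, an endothelial adhesion gene, rose against untreated (3.07 ± 0.20, adjusted p = 0.00403) and TGFb (3.32 ± 0.20, adjusted p = 0.00602), and CD79A, a B cell receptor subunit, rose against untreated (1.30 ± 0.22, adjusted p = 0.0485). The other endothelial genes differed from TGFb by −0.10 (TIE1) to 0.41 (KDR) with 5-AZA and were not called, so PECAM1 carried most of that list's rise. Of the 14 leukocyte genes, 8 were higher and 6 lower with 5-AZA than untreated, with LCK at −0.58. Some fibroblast markers were high in the same arrays as TNFSF4. Of 8 measured, COL1A1, COL1A2, DCN and LUM rose under TGFb and PDGFRA fell, and the list's mean went from 4.54 to 4.85 untreated to 6.70 to 6.80 under TGFb, 7.19 with 5-AZA and 5.26 after withdrawal. The part of these markers in the values of the ligands was not tested.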

How the data were processed

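The authors deposited 1 normalized log2 signal per probe set and array, made with Affymetrix Expression Console 1.2 per the submitters' processing notes. No source used here gives the summary method, background correction, log base or genome build. The deposited values run from 0.937 to 13.1, the range of log2 values, and were read as log2. Another base would multiply every difference by a constant and leave p-values unchanged. The platform annotation gave 1 symbol to 16545 probe sets, several to 370 and none to 15378, and no gene was named from the second kind. Of the 36 members, 34 were found in RefSeq (UU_Cfam_GSD_1.0) by gene identifier, and TNFSF18 and TNFRSF17 by symbol. That table served for gene order, and no coordinate is given.

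A model with 1 mean per group was fitted over 6 arrays by lmFit and eBayes of limma 3.58.1 (R 4.3.3), with neither trend, robust option nor filter. P-values were Benjamini-Hochberg adjusted over 32293 probe sets. Only the untreated and TGFb groups supply residual degrees of freedom, 2 in all, to which moderation added 3.10, and the single arrays were assumed to vary alike. The step was tested on simulated data. Members and lists were chosen with earlier results of these data known. Described in full were called members, the 5 largest differences each way per comparison, and TNF, TNFSF4, TNFSF10, TNFSF15, FAS, CD40, TNFRSF1A, TNFRSF12A, TNFRSF21, TNFRSF19 and TNFRSF11B. Genes of pathway lists were named where called. Alternatives changed the normalization, moderation, filter, probe sets tested and arrays included. The number of arrays limits the precision.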

Additional observations from a re-analysis of the deposited data

How the results depend on the processing

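TNFSF4 was the member called for TGFb against untreated, for withdrawal against TGFb and for 5-AZA against untreated under quantile normalization, median centring, an intensity trend, robust moderation, mean probe sets and identical probe sets counted once. These settings also left the other 2 comparisons without a called member. With probe sets below the median signal dropped, which kept 12 members, TNFSF4, TNFSF18 and TNFSF11 were called. These 3 were called both for TGFb and for 5-AZA against untreated, beside 6.2% and 7.56% of the probe sets kept. That filter took the mean of all 6 arrays, which TNFSF4 and TNFSF11 passed only through the groups where they were high. The counts of members in that setting are therefore no support. With only named genes tested, which changes both the adjustment and the moderated errors, 3 were called for TGFb, 2 for withdrawal against TGFb, 2 for 5-AZA against TGFb (FAS and TNFSF4, each with adjusted p = 0.0421) and 4 for 5-AZA against untreated. Of all genes 7.7%, 5.69%, 4.28% and 10.9% were called there, and the members' shares lay near these. Leaving out 1 array left a replicated group with 1 array, so called members are not counted for those fits. Some of them lost the calls of TNFSF4, as described above. The TNFSF4 difference there ran from 4.27 to 4.39 for TGFb against untreated and from −4.38 to −4.35 for withdrawal against TGFb. Calls of TNFSF18 and TNFSF11 with an untreated array left out rest on the spread of the TGFb arrays alone and are no support. The differences of TNFSF4 and TNFSF18 between withdrawal and untreated changed sign without untreated replicate 1, to 0.032 and −0.75. Over all left-out arrays they ran from −0.088 to 0.032 for TNFSF4 and from −0.75 to 1.24 for TNFSF18. The labels do not say that a shared replicate number marks a shared culture or day, so the numbers were not taken as pairs. Same-numbered untreated and TGFb arrays deviated together weakly (r = 0.0988 over all probe sets). With 1 difference per group, that check cannot decide on pairing. The replicate number was also fitted as a block, on the untreated and TGFb arrays alone. There 2 members were called for TGFb against untreated, TNFSF4 and TNFSF11 (adjusted p = 0.0358), beside 2.2% of all probe sets. Over all probe sets, 531 were called for TGFb against untreated, 483 to 1228 under the other settings with all arrays and 0 to 129 with an array left out. Other causes of these changes were not tested. PRDX6, ANKRD45, CSF2, RIPK2 and CASP10 were added to these settings after seeing the data. Where tested, they lost calls only with an array left out. ANKRD45 was not tested with the probe sets below the median signal dropped, since that filter removed it. With 2 arrays or 1 per group, uncalled differences are not shown to be absent.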
